A study of Mus musculus with 13 samples.

Results

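The 4 transplanted basal cell carcinoma tumors (Tp-BCC) are described here on their own, as 4 of the 13 tumors in the series and 4 of its 11 mice. They were taken by their label as transplanted tumors, and no measured value was used to choose them. Each Tp-BCC tumor grew under the skin of the right flank of a separate female Ptch1+/-p53fl/fl mouse that had been inoculated with tumor cells, and all of these cells descend from a single tumor of the genetically engineered model (GEM-BCC). The 9 GEM-BCC tumors, used only for comparison and including 2 pairs from the same mouse, arose in the skin of 7 female Ptch1+/-K14-CreERT2p53fl/fl mice after 3 injections of 300 µg tamoxifen and 4 Gy of X-ray. Every mouse in the series carried 1 inactive copy of Ptch1 and floxed p53. The K14 promoter limits the Cre of GEM-BCC mice to basal keratinocytes, and the Tp-BCC hosts carried no Cre, so host cells in a Tp-BCC tumor keep p53. Tp-BCC libraries belong to batch 2 and GEM-BCC libraries to batch 1, so model and batch cannot be told apart.

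Basal cell carcinoma is a skin cancer of keratinocytes that resemble the basal layer of the epidermis and hair follicle. It is driven by the Hedgehog pathway, in which the receptor Ptch1 holds back the signal transducer Smo, and loss of that brake lets Gli transcription factors switch on target genes such as Gli1, Ptch1 itself and Hhip. The tumor cells grow in nests within a stroma of fibroblasts, collagen and vessels, and bulk RNA of a tumor is a mixture of all of them. A lower level of a marker in bulk RNA can mean fewer cells of a type or less RNA per cell, which cannot be told apart.

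Poly(A) RNA of each tumor was sequenced, and the authors estimated a count per gene. Total counts were 15764222 in TP1, 17494912 in TP2, 15388027 in TP3 and 16782837 in TP4. Of 21100 genes in the table, 16752 had a value in all 4 tumors, and 12674 of these had at least 10 counts in every tumor. Levels are given as CPM, counts per total count of a library, with the totals adjusted by the trimmed mean of M values (TMM) over the 4 tumors, in the order TP1, TP2, TP3 and TP4 unless tumors are named. The description covers the 10096 genes whose log2 CPM averaged 3 or more, and differences between tumors are on the log2 CPM scale with a prior count of 2. The labels give the 4 tumors no subgroups, so values within Tp-BCC are descriptions without tests. A gene was called stable when its highest and lowest tumor lay at most 0.25 apart, and variable when they lay at least 2 apart, which is a factor of 4 or more. The median SD expected from counting alone was 0.059, against a median SD between tumors of 0.49. No pair of libraries was alike within counting noise, since the mean chi-square per gene was 15.7 for TP1 with TP3, the most similar pair, and 412 for TP3 with TP4.

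The tumors fell into the pairs TP1 with TP3 and TP2 with TP4, and these pairs followed the GC content of transcripts, the percentage of their bases that are G or C. Across 9966 described genes with a known GC content, Spearman's rho between GC content and a tumor's level relative to the gene's mean was −0.81 in TP1, 0.70 in TP2, −0.79 in TP3 and 0.72 in TP4. These are correlations across genes, which share a library and are not independent replicates. In the 10% of genes poorest in GC (33.9% to 43.7%) the median deviation was 0.85 in TP1, −0.92 in TP2, 1.11 in TP3 and −1.03 in TP4. In the 10% richest in GC (58.8% to 72.8%) it was −0.41, 0.24, −0.43 and 0.61. Genes with few G and C bases were thus low in TP2 and TP4, and the deviation at the GC-poor end was larger in every tumor than at the GC-rich end. The labels name no property that separates the pairs. Relative to the mean of GEM-BCC tumors the rho was −0.22, 0.64, −0.32 and 0.67, and GEM1 had a rho of 0.57 within GEM-BCC, where the lowest rho was −0.31.

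**Figure D1:**
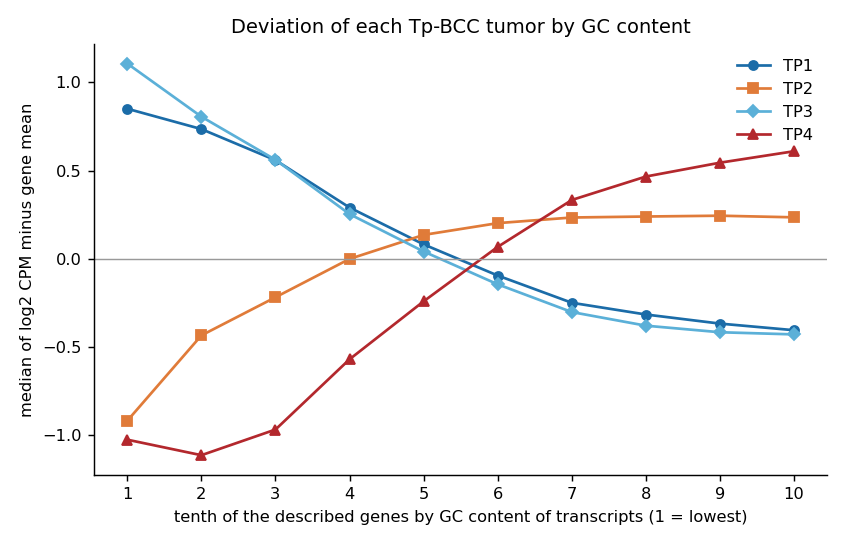
Median deviation of log2 CPM from the gene's mean over the 4 Tp-BCC tumors (y axis) in 10 equal bins of the described genes ordered by GC content (x axis, bin 1 the poorest), with 1 line per tumor. TP1 and TP3 fall from 0.85 and 1.11 in the poorest bin to −0.41 and −0.43 in the richest, and TP2 and TP4 rise from −0.92 and −1.03 to 0.24 and 0.61.

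Stretches of coding sequence from 6 genes, picked from both ends of the GC trend, show what a low and a high GC content look like. The first 3 belong to the genes with the largest SD between tumors (Atrx, Akap11 and Pik3c2a), and the last 3 to genes among the 20 of highest level (Krt5, Col1a1 and Eef2). Each is 120 bases from the middle of the largest coding exon of the longest coding transcript in GENCODE vM21, written 5′ to 3′ on the coding strand with G and C in capitals. Coordinates are those of the annotation's build GRCm38, while the authors counted reads on GRCm39. The Atrx stretch lies in exon 9 at chrX:105876007-105876126 on the minus strand, Akap11 in exon 7 at chr14:78512041-78512160 (minus), Pik3c2a in exon 2 at chr7:116417927-116418046 (minus), Krt5 in exon 1 at chr15:101712483-101712602 (minus), Col1a1 in exon 48 at chr11:94950372-94950491 (plus) and Eef2 in exon 11 at chr10:81180921-81181040 (plus).
Atrx: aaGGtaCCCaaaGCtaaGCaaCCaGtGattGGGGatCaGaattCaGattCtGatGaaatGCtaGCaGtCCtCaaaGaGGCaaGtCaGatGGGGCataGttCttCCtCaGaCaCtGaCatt
Akap11: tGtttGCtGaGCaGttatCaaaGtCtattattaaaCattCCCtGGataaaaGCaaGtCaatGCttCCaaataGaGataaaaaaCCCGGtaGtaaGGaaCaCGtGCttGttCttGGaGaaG
Pik3c2a: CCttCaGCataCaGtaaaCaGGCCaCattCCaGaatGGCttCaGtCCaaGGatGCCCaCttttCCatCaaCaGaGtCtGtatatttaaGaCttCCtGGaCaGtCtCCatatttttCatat
Krt5: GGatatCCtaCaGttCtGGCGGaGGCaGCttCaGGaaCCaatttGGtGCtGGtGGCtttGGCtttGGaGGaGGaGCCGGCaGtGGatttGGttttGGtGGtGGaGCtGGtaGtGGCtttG
Col1a1: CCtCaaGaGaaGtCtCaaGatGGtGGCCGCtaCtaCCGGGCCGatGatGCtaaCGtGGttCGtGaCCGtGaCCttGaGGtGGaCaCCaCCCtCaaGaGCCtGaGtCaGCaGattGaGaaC
Eef2: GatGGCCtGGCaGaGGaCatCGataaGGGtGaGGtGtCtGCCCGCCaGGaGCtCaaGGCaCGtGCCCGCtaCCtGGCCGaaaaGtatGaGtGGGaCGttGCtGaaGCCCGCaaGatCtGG
G and C make up 45.0%, 37.5% and 41.7% of the first 3 stretches and 55.0%, 55.8% and 60.8% of the last 3. Over whole transcripts the GC content was 44.2% for Atrx, 42.2% for Akap11 and 40.3% for Pik3c2a, against 56.9% for Krt5, 58.9% for Col1a1 and 57.0% for Eef2. Not all of the 20 genes of highest level are rich in GC, as the first of them, Eef1a1, has 47.7%.

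The pairing took most of the difference between tumors. For the median described gene 84.4% of the sum of squares lay between TP1 with TP3 and TP2 with TP4, where an equal share over the 3 possible pairings would be 33.3%, and the share exceeded 90% in 3616 genes. TP1 and TP3 differed by a median of 0.12 and were at least 1 apart in 79 genes. TP2 and TP4 differed by a median of 0.41 and were at least 1 apart in 1583 genes, so that TP2 with TP4 was the looser pair. Tumors of different pairs differed by medians of 0.59 to 0.95, the largest between TP3 and TP4. Removal of each tumor's trend with GC content (a smoothed curve subtracted per tumor) brought the median SD from 0.49 to 0.27. It did not end the pairing, which still held 72.7% of the total sum of squares, or 73.3% with the trend in transcript length removed too, against 84.2% before. Length itself went with level by a rho of 0.23 in TP1, −0.03 in TP2, 0.23 in TP3 and −0.31 in TP4. What else the pairs share was not tested.

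The most expressed genes of Tp-BCC tumors were those of protein synthesis, collagen matrix and the basal keratinocyte skeleton. The 20 genes of highest mean CPM took 6.90%, 8.62%, 6.78% and 9.53% of all counts (mean 7.96% ± 1.35 SD, n = 4). Eef1a1, which delivers transfer RNAs to the ribosome, led with 11155, 7384.5, 10511 and 5200 CPM. It was lowest in TP4 and highest in TP1. The other translation factor among the 20, Eef2, had 2370, 4500, 2206 and 5474 CPM and so ran the opposite way across the pairs. After GC removal Eef1a1 differed by 0.29 and Eef2 by 0.44 between the highest and lowest tumor.

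Fibrillar and basement membrane collagens made up the stromal portion of the top 20. Col3a1, a fibrillar collagen of soft tissue, had 5717, 8107, 6090 and 7804 CPM. Col1a2 and Col1a1, the chains of collagen I, had 5065, 7362, 5116 and 9805 CPM and 2993, 4608, 3000 and 7811 CPM. Both chains were lower in TP1 and TP3 than in TP2 and TP4, with TP4 the highest, and after GC removal the tumors lay 0.12 apart for Col1a2 and 0.45 apart for Col1a1. Col4a1 of basement membranes (2931, 5197, 3005 and 5651 CPM) and Col6a3 of the microfibrillar collagen VI (2550, 4047, 2790 and 4296 CPM) showed the same order of the pairs. The keratinocyte portion was Krt5, the basal layer keratin, with 4321, 7376, 3811 and 9587 CPM, and Krt17, a keratin of hair follicle and of basal cell carcinoma, with 2543, 4254, 2552 and 5970 CPM. Both keratins, which mark the labelled tumor type, were among the leading genes in every tumor.

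Others of the 20 were ribosomal proteins (among them Rpsa, Rpl13, Rps2 and Rpl13a), actins (Actb and Actg1), the mitochondrial carrier Ucp2, the chaperone Hsp90ab1, the nuclear protein Ptma and Tpt1, a translationally controlled protein. Ptma was the most even of these with 3836, 3225, 4096 and 3969 CPM, and its highest tumor was TP3. Tpt1 had 2007, 2201, 2014 and 3878 CPM, so TP4 stood above the other 3. Ucp2, by contrast, followed the pairs with 1722, 3517, 1729 and 4458 CPM. Many ribosomal protein genes and Eef1a1 have near-identical pseudogene copies, between which the counting divides reads, and their levels are uncertain to that extent. Levels of different genes compare only per length. Per kilobase of the longest coding transcript, the highest mean CPM were 4773 for Eef1a1, 3743 for Rpl13, 3315 for Rpl23a, 3110 for Ptma and 2856 for Krt5, and 10 of the 20 leading genes were the same on both scales. Collagens dropped on this scale, with 1278 per kilobase for Col1a2, 1245 for Col3a1 and 776 for Col1a1.

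Few genes held one level in all 4 tumors as measured. Of 10096 described genes, 197 (1.95%) were stable, with a median level of 40.5 CPM, and 57 of the 197 had an SD at or under that of counting alone. Ubb, a polyubiquitin gene, was the most expressed of them with 2124, 2204, 2184 and 2517 CPM. Ywhae, a 14-3-3 adaptor protein, was the most even of the 10 leading stable genes with 566, 585, 569 and 553 CPM. Others of the 10 were Hnrnpab (700, 822, 705 and 760 CPM), which binds nuclear RNA, the translation initiation subunit Eif3h (577, 532, 559 and 544 CPM), Rab7 (329, 338, 314 and 311 CPM), a small GTPase of late endosomes, and Rbbp4 (225, 228, 220 and 206 CPM), a histone-binding subunit of chromatin complexes. Prkar1a, Ociad1, Polr2m and Eid1 completed the 10. Stable genes had a median GC content of 51.2%, close to the 51.7% of all described genes.

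Stability as measured and stability at matched GC content were held by largely different genes. After GC removal 1438 genes (14.4%) were stable, and 24 genes were so both before and after. Hnrnpab, Rab7 and Rbbp4 stayed within 0.25, with 0.10, 0.14 and 0.19 between the highest and lowest tumor. Ywhae (GC content 47%), Prkar1a (46%), Ociad1 (48%) and Eid1 (46%) did not, and differed by 1.53, 1.89, 1.33 and 1.73. Ubb (57%), Polr2m (50%) and Eif3h (51%) also left that limit, by less, with 0.64, 0.67 and 0.33. The levels of all the genes that left it were even as measured, and subtraction of the trend at their GC content set the tumors apart. Just inside the stable threshold lay Tamm41 and Exosc1 with differences of 0.2498 and 0.2494, and just outside it Hoxb2 and Pole4 with 0.2506 and 0.2508.

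**Figure D2:**
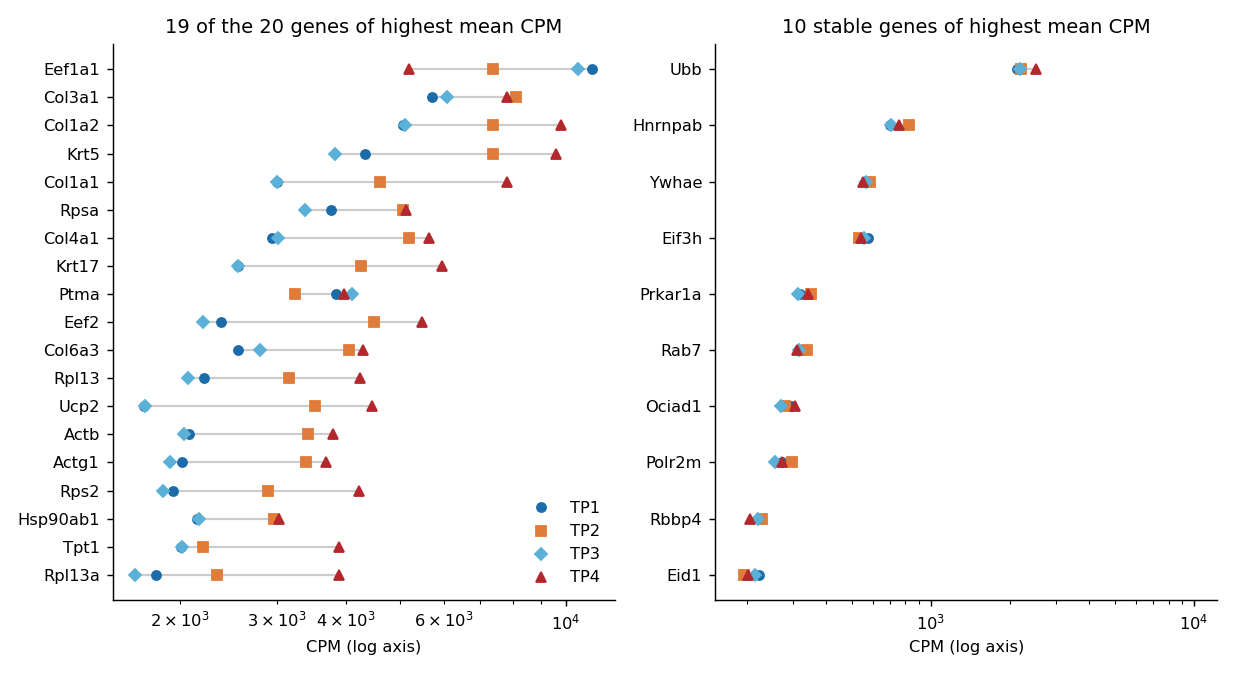
CPM per tumor (x axis, log scale) of 19 of the 20 genes of highest mean CPM in Tp-BCC (left) and of the 10 stable genes of highest mean CPM (right), 1 symbol per tumor, with a grey line from the lowest to the highest tumor. On the left Eef1a1 spans 5200 to 11155 CPM, and TP2 and TP4 lie above TP1 and TP3 for collagens and keratins, while on the right the 4 symbols of a gene nearly coincide, as at 553 to 585 CPM for Ywhae.

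Variable genes were many and almost all ran one way. As measured, 1938 genes (19.2%) differed by at least 2 between the highest and lowest tumor. In 1884 of them both TP2 and TP4 lay below both TP1 and TP3, in 8 both lay above, and in 46 the pairs overlapped. The 1884 genes had a median GC content of 45.3% and a median transcript length of 3261 bases, against 51.7% and 2230 bases for described genes, and the 8 had 56.2%. Just inside the threshold lay Taf15 and Tnxb (both 2.001), and just outside it Septin6 (1.999) and Srp54c (1.997).

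Of the 15 genes with the largest SD, 14 were higher in both TP1 and TP3 than in TP2 and TP4. Atrx, a chromatin remodeler, had 70.3, 2.73, 140 and 7.34 CPM (SD 2.65 on the log2 scale). Akap11, an anchor of protein kinase A, had 51.8, 4.12, 65.0 and 1.98 CPM, and Pik3c2a, a lipid kinase, had 26.4, 1.05, 47.9 and 3.70 CPM. In all 3 genes both TP1 and TP3 lay far above TP2 and TP4. Cenpf, a kinetochore protein of dividing cells, had 51.2, 3.25, 102 and 4.70 CPM. The RNA export subunit Thoc2 (35.3, 2.15, 77.2 and 3.90 CPM), the DNA demethylase Tet2 (38.4, 5.11, 53.5 and 1.39 CPM) and Ogt (178, 28.4, 248 and 7.01 CPM), which attaches N-acetylglucosamine to proteins, followed. Nfat5, Myo9a, Mga, Cep295, Rapgef6, Zfp397 and Zfp445 had the same order of the pairs. The exception among the 15 was Cfd, the adipocyte protease adipsin, with 2.93, 119, 4.53 and 9.39 CPM, which was high in TP2 alone.

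After GC removal 719 genes (7.21%) were variable, and 411 genes were so both before and after. Of the 15 with the largest SD, 3 were shared with the list before removal (Atrx, Cfd and Zfp397). Zbtb20, a transcription repressor, led the new order with 24.7, 3.66, 48.1 and 2.58 CPM. Its GC content of 54% is above the median, and it was nevertheless low in TP2 and TP4, as were Prr14l (82.8, 19.7, 97.2 and 8.40 CPM), Vps13b (64.2, 12.2, 72.9 and 4.50 CPM), the matrix protein Sned1 (319, 144, 427 and 37.4 CPM) and the glucocorticoid receptor Nr3c1 (120, 21.1, 128 and 13.5 CPM). Removal of a GC trend therefore left the pairing visible in single genes. For Zbtb20 this is less certain, since its GC content is a median over transcripts of 829 bases in median length, and its longest has 26901. Other genes did not have TP1 and TP3 high and TP2 and TP4 low. Car3, a carbonic anhydrase of fat and muscle, had 9.55, 78.1, 6.06 and 5.89 CPM and Fabp4, a fatty acid carrier of adipocytes and some endothelium, had 6.87, 25.3, 8.08 and 8.47 CPM, both highest in TP2. Rpl22l1 (11.2, 18.4, 12.98 and 45.9 CPM) and the matrix proteoglycan Omd (7.76, 7.61, 19.2 and 39.8 CPM) were highest in TP4, with TP3 next for Omd. For Rpl22l1, and narrowly for Fabp4, both TP2 and TP4 lay above TP1 and TP3. After GC removal the deviations were −1.65, 1.13, −1.77 and 2.29 for Rpl22l1 and −1.50, 2.35, −1.58 and 0.73 for Fabp4. Zfp382, Hmgn5 and Nemf completed the 15.

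Differences within the pairs were taken up after the values had been seen. The largest within-pair SD belonged to Aspn, a matrix proteoglycan, with 10.99, 2.73, 29.7 and 45.6 CPM. Hmgn5, a nucleosome-binding protein, had 12.8, 1.86, 21.9 and 34.3 CPM, and Ogn, a further matrix proteoglycan, had 22.7, 7.37, 46.7 and 76.1 CPM. In these 3 genes TP2 was the lowest and TP4 the highest tumor, and TP3 lay above TP1. The proteoglycans Aspn, Ogn and Omd had their highest level in TP4 at a GC content of 34% to 36%, whereas the 10% of genes poorest in GC had a median deviation of −1.03 there.

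**Figure D3:**
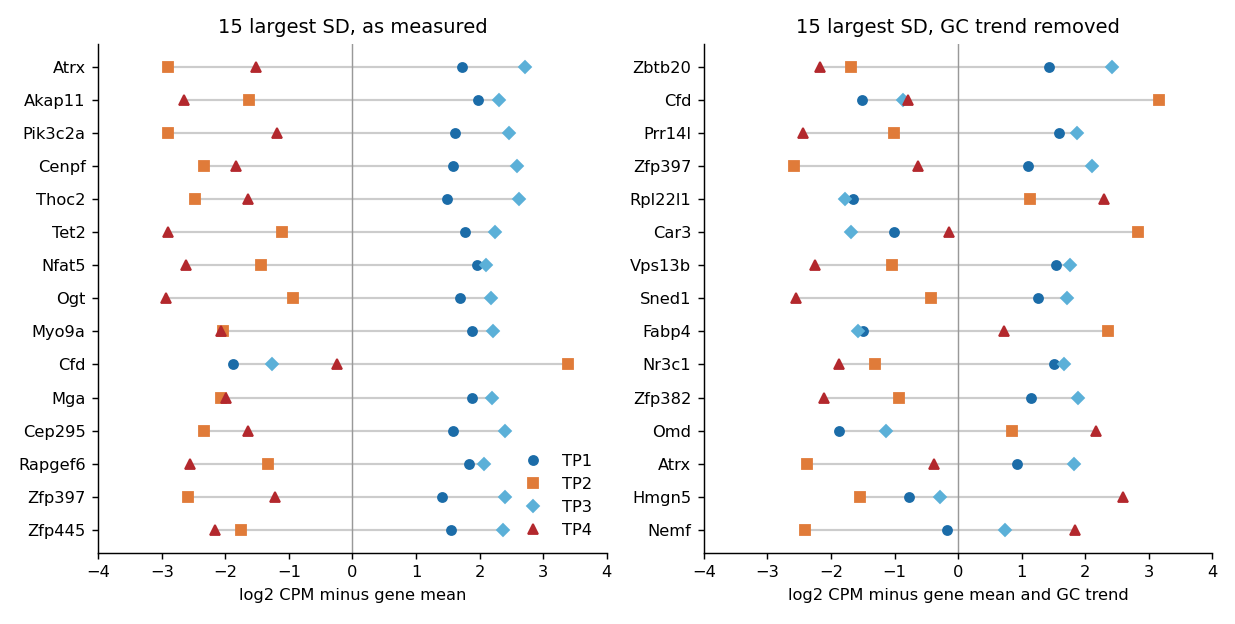
Level of the 15 genes of largest SD in each tumor relative to the gene's mean (log2 CPM scale), as measured in the left panel and after removal of each tumor's GC trend in the right panel, with 1 symbol per tumor and a grey line from the lowest to the highest. On the left 14 of the 15 genes have TP1 and TP3 high and TP2 and TP4 low, with Cfd the exception, and on the right Cfd, Car3 and Fabp4 stand out by TP2.

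Target genes of the Hedgehog pathway were well expressed in every tumor. All 23 listed genes had a value and 18 were described. Gli1, the pathway's most direct transcriptional readout, had 683, 759, 692 and 894 CPM, an SD of 0.18 that was the lowest of the described members as measured. After GC removal its SD was 0.29 and its tumors lay 0.56 apart, above the median SD of 0.27 for all described genes. Hhip, a target that binds ligand, had 462, 380, 541 and 284 CPM. As measured, Gli1 was highest in TP4, and Hhip, with 41% GC, was lowest there. After GC removal the Hhip deviations were −0.70, 0.86, −0.73 and 0.56, so that TP4 lay above TP1 and TP3. Ptch1, the receptor of which these cells carry a mutated copy, had 178, 150, 191 and 56.5 CPM, and the table does not separate its alleles. For Ptch1 TP4 was the lowest as measured, at a GC content of 49%, and stayed the lowest after GC removal (a deviation of −0.61).

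Downstream, Smo, which carries the signal across the membrane, had 291, 468, 294 and 465 CPM, and Gli2, an activator, 406, 676, 404 and 673 CPM. Both were pairwise even, and after GC removal the tumors lay 0.30 apart for Smo and 0.31 for Gli2. Gli3, mainly a repressor, was far lower in TP4 (31.3, 21.1, 30.9 and 5.56 CPM), and the coreceptor Cdon gave a similar order (31.6, 18.6, 28.4 and 6.48 CPM). With Spop (94.3, 51.2, 118 and 29.3 CPM) these were the 3 variable members, and Gli3 alone still differed by more than 2 after GC removal (3.12). Sufu, an inhibitor of Gli proteins, had 100, 155, 90.9 and 202 CPM. The cilium proteins Evc and Evc2 differed by 0.17 and 0.13 after GC removal, which made them stable at matched GC content together with Rab23 (0.16). The ligands were nearly silent. Shh had 1 count or fewer in every tumor, Ihh 0.119 to 0.551 CPM and Dhh 0.657 to 1.39 CPM. The median SD of the described members was 0.39 before and 0.16 after GC removal, against 0.49 and 0.27 for all described genes. Of the 18 described members, 0 and then 3 were stable (1.95% and 14.4% of all described genes), and 3 and then 1 were variable (19.2% and 7.21% of all), counts that are near those shares.

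Genes of the basal and basal cell carcinoma lineage were all detected, and 24 of the 25 were described. Krt14, the partner of Krt5, had 1068, 1838, 939 and 2597 CPM, and Col17a1, a hemidesmosome collagen, 498, 919, 590 and 986 CPM. Ccnd1, a cyclin that drives entry into the cell cycle, had 855, 1191, 787 and 1220 CPM. None of the 24 was stable as measured and 4 were variable (1.95% and 19.2% of all described genes), and after GC removal 2 were stable and 0 variable (14.4% and 7.21% of all). The median SD went from 0.43 to 0.26. Desmosome genes, which join keratinocytes to each other, scored 0.38, −0.10, 0.48 and −0.76 (the mean over members of the level relative to the gene's mean). After GC removal the scores were 0.21, −0.03, 0.29 and −0.48, so that TP4 kept the lowest score. The desmosome genes summed to 861, 1016, 864 and 1057 CPM, so TP4 was the highest by the sum.

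Cell division genes differed by pair. The 50 listed genes, all described, scored 0.54, −0.70, 0.70 and −0.54, and 23 of them (against 19.2% of all described genes) were variable. Mki67, which marks cycling cells, had 182, 14.6, 413 and 58.8 CPM, and Top2a, which untangles chromosomes, 263, 23.7, 316 and 31.5 CPM. Members richer in GC ran the other way. Plk1, a mitotic kinase, had 121, 203, 102 and 226 CPM, Ncapd2 of condensin 170, 245, 164 and 249 CPM, and the transcription factor Foxm1 152, 206, 132 and 208 CPM. These 5 best-expressed members have a GC content of 43% (Top2a) to 57% (Plk1), and the order of the tumors turned over along it. After GC removal the scores were 0.13, −0.39, 0.22 and 0.05 and 9 members were variable (7.21% of all genes), with TP2 the lowest.

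Ribosomal protein genes stood apart in TP4. Of 79 genes, 77 were highest in TP4, where 36.5% of 14938 genes with over 3 counts had their highest value. Their summed level was 62012, 75404, 61885 and 116290 CPM. The score of TP4 was 0.67 as measured and 0.78 after GC removal, the other tumors lay between −0.34 and −0.02, and 18 of the 79 were variable after removal (7.21% of all described genes) although none was before (19.2% of all). Nuclear-encoded respiratory chain genes leaned the same way, with 41 of 52 highest in TP4 and scores of −0.20, 0.08, −0.29 and 0.41. Transcripts of both groups are short, and TP4 was the tumor with the most negative relation to length, whose part in these levels was not tested. The heat shock score was lowest in TP2, with 0.39, −0.58, 0.28 and −0.08 that became 0.24, −0.59, 0.14 and 0.20 after GC removal. Of 16 members over 3 counts, 8 were highest in TP4, 5 in TP1, 3 in TP3 and 0 in TP2. The shares over all genes were 36.5%, 17.3%, 30.6% and 15.5%. Hspa8, the constitutive chaperone, had 2403, 972, 1927 and 1152 CPM, and Hsp90aa1, chosen after its values were seen, 252, 20.8, 341 and 95.2 CPM. The chaperone Hsp90ab1 was not low in TP2, with 2145, 2960, 2166 and 3019 CPM.

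Stromal and blood vessel markers were present in every tumor, and their scores differed little. A score is a mean, and single members differed more. Their median SD as measured was 0.54 for fibroblast and matrix genes and 0.55 for endothelial genes, against 0.49 for all described genes. Fibroblast and matrix genes summed to 28254, 37777, 28497 and 45111 CPM, and their scores spanned 0.33 as measured and 0.20 after GC removal. Sparc, a secreted matrix regulator, was the steadiest of the 5 best-expressed members with 1948, 2257, 1749 and 2416 CPM. Members poor in GC went against the sum, as did Postn, a matrix protein chosen after its values were seen, with 809, 61.0, 909 and 121 CPM. Pdgfra, a growth factor receptor of fibroblasts, was lower in TP2 and TP4 at 51% GC, with 1584, 677, 1588 and 227 CPM. Endothelial genes summed to 968 to 1572 CPM over the tumors, and their scores spanned 0.18 and, after GC removal, 0.07. The vessel genes Sox18 (226, 315, 187 and 433 CPM), a transcription factor, and Eng (182, 301, 175 and 388 CPM), a coreceptor of growth factors, led that list. The exception was 2 lymphatic vessel genes. Ccl21a, a chemokine of lymphatic endothelium, had 2.99, 28.0, 4.59 and 37.6 CPM and Flt4, a growth factor receptor of these vessels, 8.48, 22.1, 7.90 and 25.7 CPM, so both were higher in TP2 and TP4. Only these 2 of the 6 lymphatic genes were described, and their scores of −1.28, 1.00, −1.03 and 1.31 kept their order after GC removal (−0.97, 0.77, −0.67 and 0.87). The 6 genes summed to 14.7, 54.1, 16.8 and 67.6 CPM, most of it from these 2, so the contrast is not shown for the list as a whole. Prox1, which defines lymphatic endothelium, was between 0.061 and 0.397 CPM.

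Among immune cell lists, that of macrophages had the most genes at the level for description, 12 of 22. Its members summed to 1247, 1683, 1333 and 2244 CPM, of which Apoe, also made by other cells, had 584, 997, 674 and 1445 CPM. The complement gene C1qa had 24.4, 26.8, 23.1 and 60.0 CPM and the lysosomal marker Cd68 had 35.9, 49.3, 36.2 and 62.2 CPM. TP4 was the highest for each of these 3, and for 11 of the 22 members, while 5 were highest in TP1 and 5 in TP3. Over all genes the shares highest in TP4, TP1 and TP3 were 36.5%, 17.3% and 30.6%. The macrophage score was 0.06, −0.38, 0.04 and 0.28, so that TP2 was the lowest although its sum was not. The dendritic cell list summed to 340, 546, 279 and 751 CPM, nearly all of it from its 1 described member Fscn1, an actin-bundling protein that other cells also make (331, 534, 267 and 734 CPM). Its defining genes Clec9a, Xcr1 and Flt3, chosen after their values were seen, were at most 0.367 CPM in any tumor. Cd74, the invariant chain of MHC class II, was highest in TP4 as well (58.7, 92.9, 65.5 and 170 CPM), as were 7 of 8 MHC class II genes (36.5% of all genes). So was the hemoglobin gene Hba-a1 (38.5, 38.9, 50.9 and 106 CPM), a sign of blood in the sample. B2m, the light chain of MHC class I, had 363, 245, 286 and 376 CPM. No member of the lists for T and NK cells, B and plasma cells, neutrophils, mast cells or melanocytes reached the level for description. Their sums were 7.90 to 14.6 CPM, 2.38 to 3.80, 5.76 to 13.4, 3.55 to 10.9 and 2.25 to 7.65. Of 5 mast cell genes over 3 counts, 4 were highest in TP1 (17.3% of all genes), led by the protease Mcpt4 (4.24, 2.85, 1.04 and 2.65 CPM).

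Most adipocyte genes were highest in TP2. Adipocyte genes, which store and release lipid, summed to 169, 680, 164 and 164 CPM. Of 22 members over 3 counts 18 were highest in TP2 (81.8%), where 15.5% of all genes had their highest value. Cfd and Car3, given above, were joined by Scd1, a fatty acid desaturase (70.5, 186, 59.9 and 38.5 CPM), the lipase Pnpla2 (26.1, 93.0, 21.4 and 52.1 CPM) and the lipase Lipe (9.43, 35.7, 7.65 and 17.2 CPM). The defining adipocyte genes, chosen after their values were seen, lay lower and showed the same tumor. Adipoq, the hormone adiponectin, had 1.97, 17.7, 1.35 and 2.18 CPM, and Plin1, which coats lipid droplets, 0.299, 10.2, 0.061 and 0.992 CPM. Lpl and Adrb3 were not highest in TP2, with 11.4, 10.1, 17.8 and 5.29 CPM and 15.3, 8.94, 23.6 and 4.63 CPM. The score was −0.45, 1.34, −0.37 and −0.52, and −0.53, 1.45, −0.49 and −0.42 after GC removal. TP4, which shares its GC trend with TP2, was near TP1 and TP3 in the sum and the score. Single genes went both ways there. Cfd, Pnpla2, Lipe, Adipoq, Plin1 and narrowly Fabp4 were higher in TP4 than in TP1 and TP3, while Scd1, Lpl, Adrb3 and Car3 were lower.

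Most skeletal muscle genes were highest in TP4. The list summed to 114, 224, 125 and 360 CPM, with TP2 also above TP1 and TP3. Of 34 members over 3 counts 27 were highest in TP4 (79.4%), where 36.5% of all genes were. Acta1, the actin of muscle fibers, had 0.179, 4.88, 0.245 and 73.6 CPM. The fast fiber genes Ckm (0, 1.28, 0.061 and 20.3 CPM) and Atp2a1 (0.179, 1.74, 0.184 and 20.1 CPM), a creatine kinase and a calcium pump chosen after their values were seen, gave the same order, with TP2 next after TP4. The Ckm value of 0 in TP1 allows up to 0.179 CPM, the level of 3 counts. Tpm2, which smooth muscle also expresses, led the list with 64.1, 82.3, 73.9 and 121 CPM. Only 4 of the 38 genes were described, Car3 among them, so the list score (−0.37, 0.68, −0.46 and 0.14) was highest in TP2 and did not follow the count of genes. The part of admixed tissue in the levels of other genes was not tested.

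**Figure D4:**
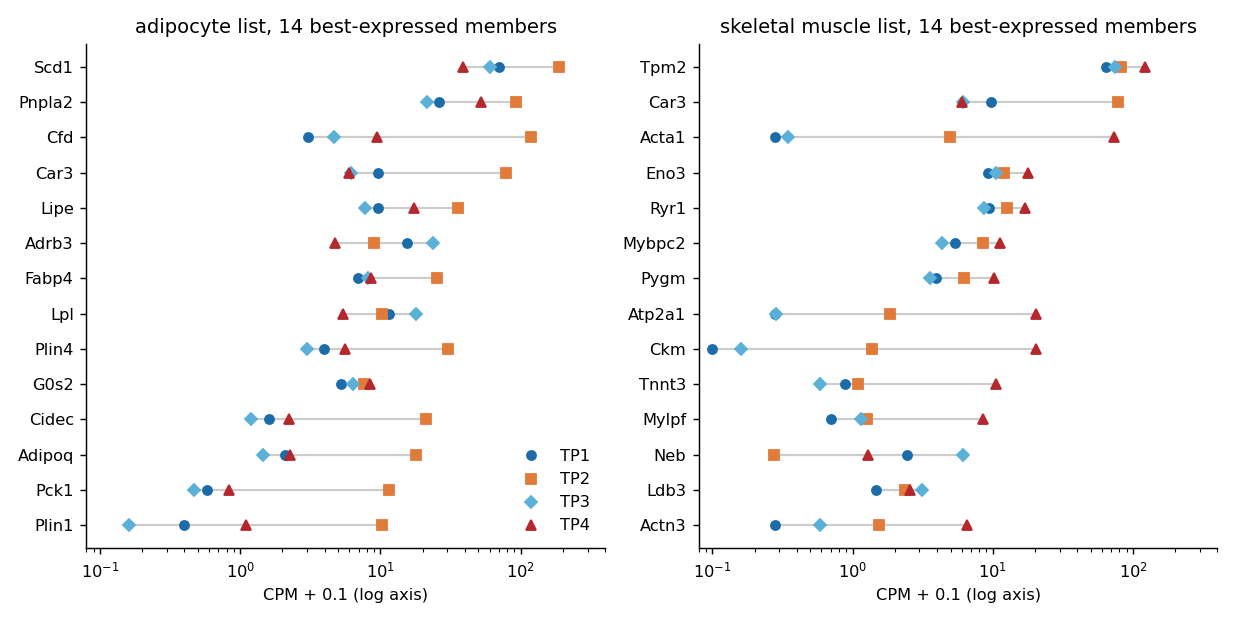
CPM plus 0.1 (x axis, log scale) of the 14 best-expressed adipocyte genes (left) and the 14 best-expressed skeletal muscle genes (right) in the 4 Tp-BCC tumors, 1 symbol per tumor, with a grey line from the lowest to the highest. On the left genes such as Cfd (119 CPM) and Adipoq (17.7 CPM) are highest in TP2, and on the right genes such as Acta1 (73.6 CPM) and Ckm (20.3 CPM) are highest in TP4.

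Of 41 gene lists, 33 had a described member and 3 had no gene with a value, namely mitochondrially encoded genes, nuclear RNAs used for RNA quality, and genes of X inactivation and the Y chromosome, which were not analysed here. Scores differed by at least 1 between tumors in 10 lists as measured and in 3 after GC removal. The 3 were adipocyte genes (a range of 1.98), lymphatic endothelium (1.84, from only 2 described members) and ribosomal protein genes (1.14). Cell division went from a range of 1.40 to 0.61 and MHC class II from 1.44 to 0.85. Immediate early genes, which respond to handling and stress, spanned 0.43 and then 0.11, and interferon response genes 0.20 and 0.17.

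**Figure D5:**
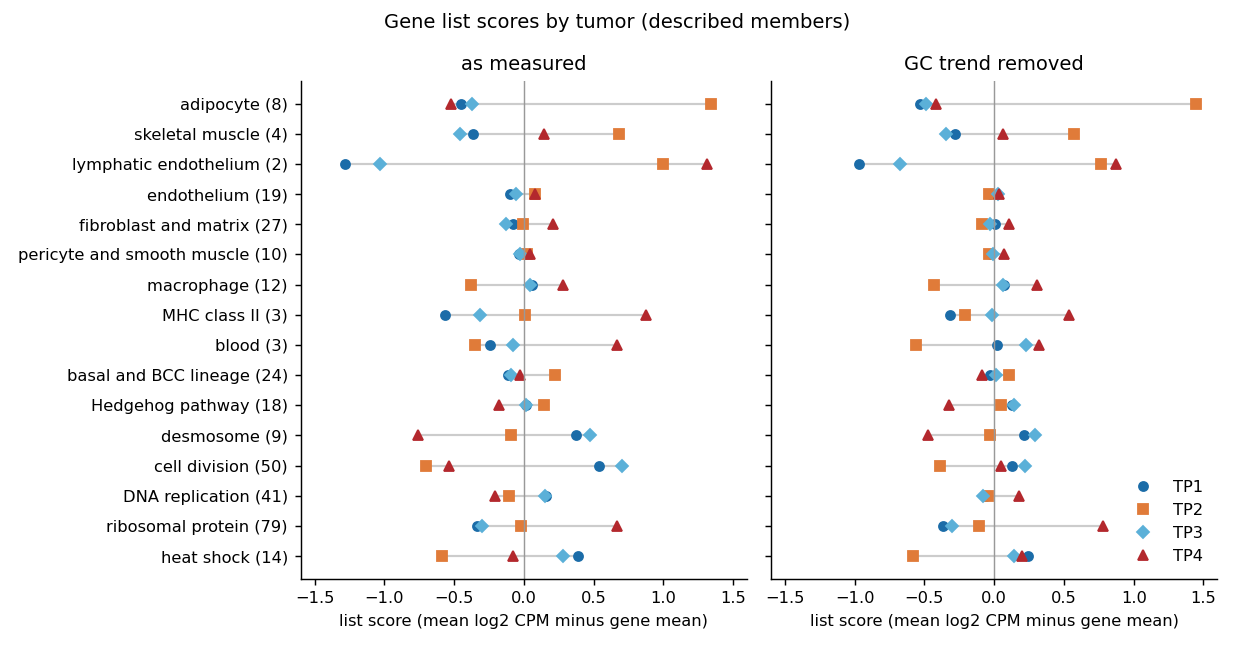
Scores of 16 gene lists in the 4 Tp-BCC tumors (x axis, mean over described members of the difference from the gene's own mean on the log2 scale), as measured (left) and after removal of the GC trend (right), with 1 symbol per tumor and the number of described members in brackets. The range narrows for most lists, as for cell division from 1.40 to 0.61, while adipocyte genes keep TP2 apart with scores of 1.34 and 1.45.

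Against GEM-BCC, the spread between tumors was larger in Tp-BCC as measured and could not be told from it after GC removal. For each tumor the spread was the mean over 9721 genes of the absolute deviation of log2 CPM from the mean of its model. It was 0.593 ± 0.152 (SD, n = 4) in Tp-BCC and 0.336 ± 0.0902 (n = 9) in GEM-BCC, a difference of 0.257 (p = 0.006993 by exact permutation, 2-sided, where the smallest p the design can give is 0.0013986). The permutation reassigned finished values, each a deviation from the mean of the tumor's own model, without computing the means anew. It also treated the 9 GEM-BCC tumors from 7 mice as separate. TP2 had the lowest value of Tp-BCC (0.441) and TP4 the highest (0.795), and 2 GEM-BCC tumors, GEM1 (0.448) and GEM3 (0.524), reached into that range. Without TP4 the difference was 0.133 (exact permutation p = 0.09545). After GC removal the means were 0.344 ± 0.106 and 0.313 ± 0.0834, a difference of 0.030 (exact permutation p = 0.65874). By gene list, the mean spread of Tp-BCC was below that of GEM-BCC in 5 of 24 lists as measured and in 16 after GC removal. Notch pathway genes then had 0.198 against 0.485 and interferon response genes 0.198 against 0.499, while heat shock genes had 0.463 against 0.298. These list values were not tested.

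Whether the genes described also differed from GEM-BCC was read from edgeR's quasi-likelihood test over 14390 genes, with calls at a Benjamini-Hochberg adjusted p under 0.05 and at more than 2 log2 units in either direction. It called 801 genes (5.57%), 339 higher (2.36%) and 462 lower (3.21%) in Tp-BCC. Genes picked for a high level in Tp-BCC are not an independent sample of these calls. The 20 most expressed genes had 0 calls by edgeR and by DESeq2, with 7 at an unadjusted p under 0.05, and the 10 stable genes had 0 by both tools with 3 at that level. Of 21 tested Hedgehog genes edgeR called 0 and DESeq2 1, and 12 had an unadjusted p under 0.05. The share of all genes at that unadjusted level was not computed, so nothing is read from these counts. At an adjusted p under 0.05 by edgeR, without the fold threshold, there were 2792 of all 14390 genes. That level was reached by 7 of the 21 Hedgehog genes, 6 of the 20 most expressed and 1 of the 10 stable genes. Gli2 was the member with the smallest adjusted p by edgeR, with 1.28 log2 units (SE 0.26, adjusted p = 0.003128), under the fold threshold. Its 4 Tp-BCC values lay above all 9 of GEM-BCC (141 to 373 CPM).

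Among the 15 genes that varied most after GC removal, edgeR called Zbtb20, Cfd, Car3, Sned1, Fabp4 and Omd higher in Tp-BCC. DESeq2 called 5 of the 15, against 6 by edgeR. The 15 genes were taken by a minimum level in Tp-BCC alone, which favors a call in that direction. Nothing is therefore read from the number of calls beside the 2.36% of all tested genes. Zbtb20 was 3.32 log2 units higher (SE 0.51, adjusted p = 0.0005177) although its Tp-BCC values overlapped the GEM-BCC values of 1.46 to 2.79 CPM (scaled over all 13 tumors). Fabp4 had 3.83 (SE 0.54, adjusted p = 0.0002404), and without TP2 it was 3.11 (adjusted p = 0.002349). Sned1 (3.12) and Omd (4.53) were called with any 1 tumor left out as well. Cfd and Car3 were at most 0.133 and 0.256 CPM in GEM-BCC tumors, and when any Tp-BCC tumor was left out too few tumors with 10 counts remained for a test. Adipoq (3.66, adjusted p = 0.008173) was no longer called without TP2 (1.88, adjusted p = 0.1518), and Atp2a1 (4.11, adjusted p = 0.004064) no longer without TP4 (1.05, adjusted p = 0.3004). Pdgfra was called higher (2.14, adjusted p = 0.0007459) and dropped under the fold threshold without TP1 (1.87) or without TP3 (1.87). The lineage genes Krt15 and Lef1, chosen after their values were seen, were called with any 1 of the 13 tumors left out. Krt15, a keratin of hair follicle stem cells, had 28.0, 48.7, 31.7 and 68.7 CPM against 292 to 1720 CPM in GEM-BCC (log2 fold change −4.03, adjusted p = 0.0002076), and Lef1, a transcription factor of the Wnt pathway, had 26.7, 38.6, 23.5 and 26.1 CPM against 1.19 to 5.25 CPM (2.99, adjusted p = 1.011e-05).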

How the data were processed

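Poly(A) RNA of 13 tumors was measured with 1 library per tumor. According to the authors' methods and notes, SOAPnuke cleaned the reads, Bowtie2 2.3.4.3 placed them on GRCm39 transcripts and RSEM 1.3.1 quantified them by strand. The deposited values are expected counts per gene, neither rounded nor normalized. The authors tested with DESeq2 and shrunken fold changes. How the genes without a value arose is not given in the sources used here. Counts were rounded in R 4.3.3 and scaled by TMM (edgeR 4.0.16), with a prior count of 2 for log2 CPM. GC content and length are medians over the protein-coding transcripts of a gene in GENCODE vM21, matched for 97.2% of the genes. GC trends were removed per tumor by lowess (span 0.3). A gene with 10 or more counts in 4 or more tumors was tested between models with edgeR's quasi-likelihood test, robust dispersions and no covariate, and spread by exact permutation. Scripts were tested on simulated data. Named genes are the 20 of highest CPM, the 10 leading stable genes, the 15 of largest SD before and after GC removal, all Hedgehog genes and up to 5 best-expressed members of other lists, except a few genes not reported here. The genes, the lists and the removal of GC were chosen with earlier results of these data known. Alternatives were DESeq2 1.42.0, other scalings, filters and prior counts, trends in GC and length, and each tumor left out. The Tp-BCC tumors come from separate mice but from 1 original tumor, and p-values measure only the spread between these samples. Intervals and floors of 3 counts cover counting error only.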

Additional observations from a re-analysis of the deposited data

Results flagged for a closer look

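Of 75 named genes, 33 list scores and 4 sets of spread values examined for a tumor far from the rest of its group, 4 had one, where chance alone marks about 1 in 20. Tpt1 was highest in TP4 at a log2 CPM of 11.92, with the next tumor at 11.1 and the lowest at 10.97. Fabp4 was highest in TP2 at a log2 CPM of 4.67, with the next at 3.10 and the lowest at 2.80. The adipocyte score was highest in TP2 at 1.34, with the other 3 tumors between −0.52 and −0.37. Fabp4 belongs to the adipocyte list, so these are not separate observations. Among GEM-BCC tumors, GEM3 had the highest spread value after GC removal, at 0.52 with the next at 0.34.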

How the results depend on the processing

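The number of stable genes (197) became 131 with TMM over all 13 tumors, 114 at a mean log2 CPM of at least 5, 1438 with the GC trend removed and 360 with the length trend removed. The number of variable genes (1938) became 667 at a mean of at least 5, 3480 without a filter and 719 with the GC trend removed. Settings added after the data were seen gave 1445 stable and 660 variable genes with GC and length trends removed, and 1546 and 636 with the GC content of the longest transcript. TP1 and TP3 alone gave 8271 and 1, and TP2 and TP4 alone 2871 and 52. With each tumor left out there were 339 to 1148 stable and 1066 to 1910 variable genes, the fewest variable without TP4. Lists at least 1 apart went from 10 to 3 with the GC trend removed. The share of counts in the 20 leading genes was 5.61% when they were ranked per kilobase (added later) and 7.46% to 8.35% with each tumor left out. Calls against GEM-BCC (801) became 439 with 10 counts in all but 3 tumors, 907 with DESeq2, and 594 (without TP2) to 853 (without GEM3) with each tumor left out. With the tumor number as a replicate block over TP1 to TP4 and GEM1 to GEM4 there were 179 calls, against 453 in the same 8 tumors without it. The numbers mark no shared mouse, and deviations of same-numbered tumors correlated at −0.44 to −0.03. The difference in spread was 0.030 with the GC trend removed (exact permutation p = 0.65874), 0.133 without TP4 (exact permutation p = 0.09545) and 0.133 to 0.311 with each tumor left out. Of 132 list scores, 114 moved by less than 1 SD with the GC trend removed and 131 with DESeq2 size factors. With 4 tumors of 1 group, 15388027 to 17494912 counts each and no labelled subgroup, differences within Tp-BCC have no test. The cause of the pairing was not tested.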

Other observations

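Signaling genes outside the Hedgehog pathway did not share one order of the tumors. Among Wnt pathway genes Ctnnb1, which encodes beta-catenin, had 1328, 821, 1255 and 419 CPM in TP1 to TP4, and the receptor Fzd7 had 369, 562, 361 and 474 CPM. The list score was 0.04, 0.15, 0.04 and −0.24, and 0.05, 0.07, 0.07 and −0.19 after GC removal. Ets factors and Kit, a list chosen with earlier results of these data known, scored 0.16, 0.00, 0.21 and −0.37 before and −0.01, 0.05, 0.04 and −0.08 after GC removal. In it the transcription factor Ets2 had 496, 690, 475 and 550 CPM, Spib 105, 180, 89.0 and 203 CPM, and the receptor Kit 66.2, 136, 90.01 and 56.1 CPM, so that Kit was highest in TP2 and lowest in TP4. Kitl, the ligand of Kit, chosen after its values were seen, had 26.9, 4.94, 50.2 and 11.6 CPM, higher in TP1 and TP3. Of 19 tested genes of that list edgeR called 6 higher and 1 lower in Tp-BCC than in GEM-BCC, against 2.36% and 3.21% of all tested genes, and the choice of the list with results known lends these counts no support. Imprinted genes went from a score range of 0.80 to 0.11 with GC removal, and Notch pathway genes from 0.34 to 0.14.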
